A study of Mus musculus with 11 samples.

Results

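The SMA-adjacent regions are areas of mouse mammary gland in which periostin-lineage cells lay beside structures stained for smooth muscle actin (SMA), the stain used to find ducts and blood vessels. They are the 5 regions whose sample titles read SMA-adjacent, numbered 001, 005, 006, 009 and 010, of 11 labelled regions in the series. The glands were naive, that is from mice with no tumour or treatment named in the labels, and every mouse carried the same lineage trace, in which cells that express periostin are marked by the green protein ZsGreen. Per the labels' protocols, glands of 3 mice were fixed in paraformaldehyde and frozen, and sections were stained for SMA, podoplanin (Pdpn) and DNA and hybridised with the NanoString GeoMx Whole Transcriptome Atlas, a panel with a barcoded probe for nearly every mouse gene. Ultraviolet light then released the barcodes only from the ZsGreen-positive part of each region, and 12 such areas were collected. The age, sex and strain of the mice are not given in the sources used here. Which mouse gave which region is not in the labels, so some of the 5 regions may come from the same animal, and the spread between them is given as a description with no test. Regions 009 and 010 carry the same label as 001, 005 and 006, so their values are set beside the others one by one.

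Periostin is a secreted matrix protein made by fibroblasts that lay down or remodel connective tissue. In the mammary gland such fibroblasts lie among white adipocytes, around ducts whose outer layer of myoepithelial cells contains smooth muscle actin, and around arteries and veins whose walls are smooth muscle. A lineage trace marks a cell that expressed the gene at any time after the trace began, together with its descendants, so a marked cell need not contain periostin RNA when it is measured. A segment drawn around green signal in a section can also hold parts of cells that lie above, below or beside the marked cell. These are sums over all cells of a segment, so fewer cells of a type and less RNA per cell cannot be told apart.

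The total count over 19965 endogenous probes ranged from 760761 in region 001 to 3086323 in region 005. The panel's 210 negative probes, which match no mouse transcript, gave a geometric mean of 22.6, 111, 64.3, 86.3 and 39.4 counts in regions 001, 005, 006, 009 and 010, and lists of 5 values below keep this order. A level is a probe's count divided by that geometric mean, so 1 is the background of the region. With the mean negative-probe count subtracted from every probe, 34.1% ± 2.28, 21.6% ± 2.52, 31.7% ± 2.19, 39.8% ± 1.62 and 41.6% ± 1.55 of the endogenous counts remained (± SE from the spread of the negative probes). Region 005 therefore had the most counts and the smallest part of them above background. A probe was called above background in a region when its log2 count exceeded the mean of the negative probes by more than 2 SD, which came to levels of 2.47, 2.24, 2.23, 2.04 and 2.09. This was met by 2431, 1754, 2497, 3809 and 3838 endogenous probes, and by between 6 and 10 negative probes per region. A region with few counts above background can miss a gene that others detect, so a miss in 005 says little about that gene.

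**Figure D1:**
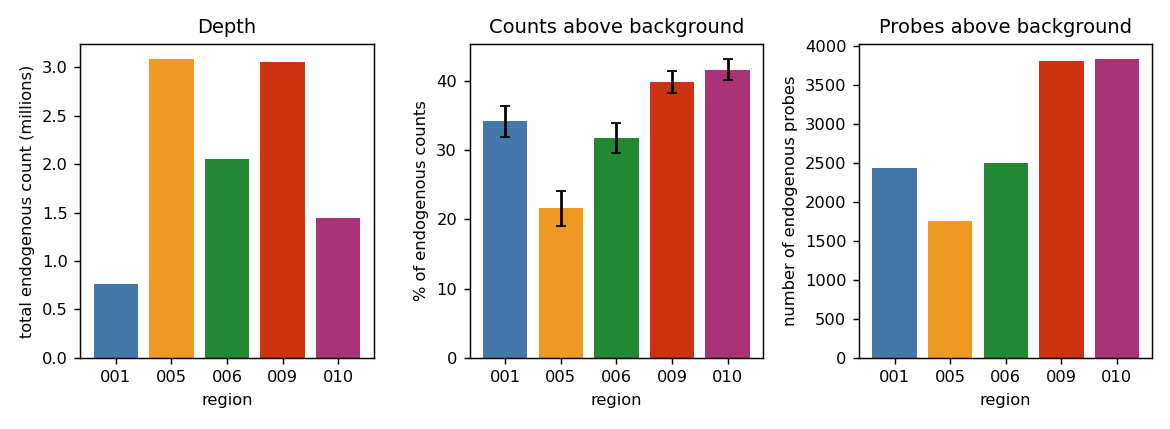
Bars show, for each of the 5 SMA-adjacent regions, the total endogenous count, the percent of endogenous counts left above background (error bars, SE from the negative probes) and the number of endogenous probes above background. Region 005 has the highest total and the lowest percent, 21.6%, and regions 009 and 010 have the most probes above background, 3809 and 3838.

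Of the 19965 endogenous probes, 1257 (6.3%) were above background in all 5 regions, and 5 of the 210 negative probes (2.38%) were as well. The negative rate applied to the whole panel would give 475 probes, so a part of the 1257 lies where untargeted probes also lie. The median level over regions was at most 5 for 882 of them, and the 5 negative probes that passed had median levels of 2.69 to 3.25. No negative probe had a median above 5, which 375 endogenous probes did, and 122 were above 10 and 8 above 50. Olfactory and vomeronasal receptor genes, which are transcribed in sensory neurons of the nose, passed in 22 of 1116 cases (1.97%). A further 15253 endogenous probes (76.4%) were above background in no region. The counts of list members given below are to be read against these 2 shares, 6.3% in all 5 regions and 76.4% in none, and a count near them is no feature of the list.

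Genes of white adipocytes gave the highest median levels over the 5 regions, and in 001 and 006 the alpha globin probe Hba-a1 stood above Fabp4. Fabp4, the fatty acid binding protein of adipocytes and capillary endothelium (probe target at chr3:10206007-10206056), had levels of 83.7, 67.3, 142, 166 and 191 (mean 130 ± 53.1, SD, n = 5). Cfd, the adipocyte-secreted complement protease adipsin (chr10:79891762-79891797), had levels of 109, 59.7, 115, 216 and 226. Car3, a carbonic anhydrase abundant in fat (chr3:14864361-14864396), had levels of 95.7, 57.2, 103, 138 and 165. By level, region 005 was lowest for all 3 genes and regions 009 and 010 were above the other 3. Of the 20 probes of highest median level, 5 were in the adipocyte list, and so were 10 of the highest 50. Positions here are probe target sites in the build that the file headers give, GRCm38.p6, and not the extent of the gene. A level also depends on how well a probe hybridises, so the order of genes is an order of probe signals.

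The rest of the adipocyte list was broadly present. Of its 20 measured members, 17 were above background in all 5 regions, against 6.3% of the panel. Cidec, a protein that fuses lipid droplets, had levels of 23.0, 13.9, 28.8, 29.3 and 36.1. Adipoq, the adipocyte hormone adiponectin, had 23.7, 13.6, 22.8, 28.3 and 32.9. Plin1, the coat protein of lipid droplets, had 11.7, 8.11, 17.0, 18.2 and 22.4. Lep, the hormone leptin, was above background in no region, with levels of 1.24 to 2.05. The list's median level was 13.2, 8.41, 16.0, 18.9 and 23.5, and 19 of 20 members were highest in region 010. Over the whole panel 32.1% of probes were highest in region 010. As shares of counts above background, 11 of 20 were highest in 010, 8 in 006, Fabp4 and Fasn among them, and Cfd in 009. Of the 1257 probes above background in all 5 regions, 13.6% were highest in 010 on that scale and 12.6% in 006. On it Fabp4 was lowest in 001, and 12 of 20 members were, a count for which no panel share was made. The list made up 8.01%, 9.32%, 11.6%, 13% and 14.5% of the counts above background, where the base is the summed count above the negative mean of the 1257 probes. Whether this RNA lay in the marked cells or in adipocytes at the edge of the segments was not tested.

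**Figure D2:**
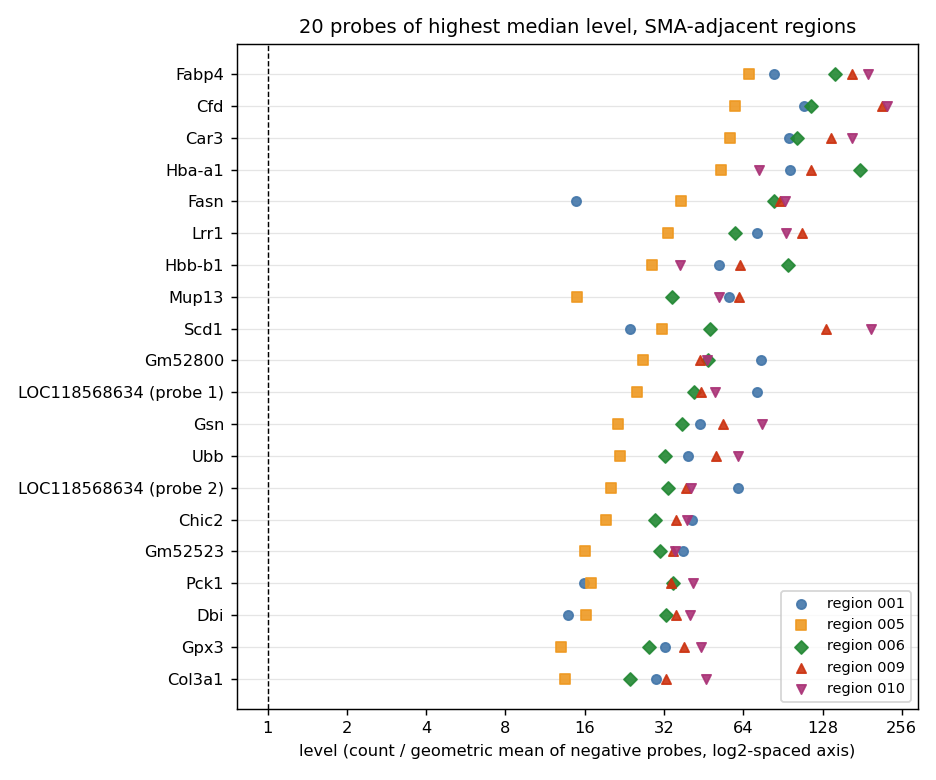
Points show the level, count over the geometric mean of the negative probes on a log2-spaced axis, of the 20 probes of highest median level in each of the 5 SMA-adjacent regions. Fabp4, Cfd and Car3 lead, region 005 is lowest for most probes, and Fasn and Scd1 spread from 14.8 to 92.4 and from 23.8 to 196.

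Genes of fatty acid synthesis, a list chosen after their values were seen, were mostly lowest in region 001. Fasn, the fatty acid synthase (chr11:120820262-120820297), had levels of 14.8, 37.3, 83.5, 88.2 and 92.4, a 6.26-fold range. Scd1, the desaturase that makes oleic acid (chr19:44403256-44403293), had 23.8, 31.5, 48.0, 132 and 196, an 8.23-fold range. Me1, the malic enzyme that supplies NADPH to the pathway, had 4.60, 7.75, 16.6, 21.5 and 24.7. Region 001 was lowest for all 3. By level adipocyte genes such as Adipoq were higher in 001 than in 005, where 40.4% of all probes were lowest. As a share of counts above background, however, the adipocyte list was lower in 001 than in 005, at 8.01% and 9.32%. Thrsp, a lipogenic protein of liver and fat, followed with 6.90, 10.3, 23.0, 25.7 and 25.2, and Acly, which supplies acetyl-CoA, with 3.10, 6.18, 13.4, 11.1 and 10.5. Of the 12 genes of this list 11 were above background in all 5 regions and 9 were lowest in 001, counts that describe the choice and support nothing. Their share of the counts above background was 1.14%, 2.93%, 3.71%, 4.23% and 4.94%. The list of sebaceous and very long chain lipid genes had 5 of 16 members above background in all 5 regions. They included Dgat2, which makes triglyceride, at 6.50, 5.62, 12.1, 15.5 and 20.1, and Elovl6, an elongase, at 3.45, 5.28, 7.05, 5.28 and 6.37.

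Smooth muscle genes were present in every region and highest in 009. The contractile apparatus of smooth muscle is built from smooth muscle actin and myosin, with transgelin, calponin and tropomyosin on the actin filament, and many of its genes carry a CArG box, the binding site of serum response factor. Acta2, which encodes the SMA used to place the regions (chr19:34246192-34246226), had levels of 23.1, 12.9, 16.7, 87.5 and 41.8 (mean 36.4 ± 30.6, SD, n = 5). The stain marked the neighbouring structure and not the segment, so the Acta2 level is that of the ZsGreen-positive area. Tagln, transgelin, had 11.1, 6.66, 8.88, 40.5 and 20.8. Myh11, the smooth muscle myosin heavy chain (chr16:14212662-14212697), had 6.01, 4.03, 5.01, 23.1 and 11.1. In each of the 3 genes region 009 was highest, 010 second, and 001, 005 and 006 lay below both. Myl9, the regulatory light chain, had 11.5, 5.32, 7.39, 27.3 and 13.9, and the essential light chain Myl6, whose probe has 2 target sites, had 12.7, 6.59, 10.0, 28.1 and 21.6.

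The promoters of 3 of these genes are printed to show where the CArG box stands in sequences of genes that were high in the same regions. Each is the 250 bases before the annotated start in RefSeq, GRCm38.p6, read 5′ to 3′ on the gene's strand, and capitals mark a CArG box (CC, 6 bases that are each A or T, GG, searched on both strands). Myl9 is at chr2:156775214-156775463 on the plus strand, the second annotated start of Myl6 at chr10:128493010-128493259 on the minus strand, and Acta2 at chr19:34255374-34255623 on the minus strand.
Myl9: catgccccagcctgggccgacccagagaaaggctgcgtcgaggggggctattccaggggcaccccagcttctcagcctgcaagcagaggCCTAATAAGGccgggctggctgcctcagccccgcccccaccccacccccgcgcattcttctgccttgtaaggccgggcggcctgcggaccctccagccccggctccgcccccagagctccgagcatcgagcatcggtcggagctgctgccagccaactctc
Myl6: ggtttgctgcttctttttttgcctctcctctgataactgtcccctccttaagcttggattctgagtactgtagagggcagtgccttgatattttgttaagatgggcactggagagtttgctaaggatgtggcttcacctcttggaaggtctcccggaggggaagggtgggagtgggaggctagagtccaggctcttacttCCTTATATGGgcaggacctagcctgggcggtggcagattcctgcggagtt
Acta2: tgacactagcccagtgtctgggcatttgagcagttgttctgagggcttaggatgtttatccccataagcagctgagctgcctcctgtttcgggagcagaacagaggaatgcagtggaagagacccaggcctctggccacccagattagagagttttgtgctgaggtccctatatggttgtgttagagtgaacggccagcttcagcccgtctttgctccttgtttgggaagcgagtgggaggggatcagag
The match starts 161 bases before the start of Myl9 and 50 bases before that of Myl6, and the Acta2 window has no exact match. It holds ccctatatgg and ccttgtttgg, which have the length of the box and differ from it in a single inner base, C or G. Such stretches are not particular to Acta2, since the Myl9 window also holds ccttgtaagg. How often they occur over all windows was not counted. Among 15 windows for 13 genes of the list, the 2 of Myl9 and Myl6 held a match. This stands beside 482 of all 32851 windows of the same length (1.47%). The windows for Tagln and Myh11 were not used here.

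All 16 smooth muscle genes measured were above background in at least 1 region and 8 were so in all 5. In 15 of 16 the highest level was in region 009, where 20% of all probes were highest, and in 16 of 16 regions 009 and 010 were both above 001, 005 and 006. Over the panel that order, at any size, held for 27% of probes, and the opposite order, with both lowest, for 9.84%. Among the 1257 probes above background in all 5 regions it held for 38.9%. As shares of counts above background, 15 of the 16 were still highest in 009, beside 8.04% of the 1257 probes. On that scale 11 of the 16 kept the order of 009 and 010 above the others, for which no panel share was made. Myl9, Tpm1, Tpm2, Actg2 and Des left it, since 010 was not above all of 001, 005 and 006. The list's median level was 3.54, 3.65, 3.21, 10.7 and 7.18, and its share of the counts above background was 1.45%, 1.48%, 1.05%, 3.87% and 2.01%. Cnn1, calponin, a marker of mature smooth muscle and of myoepithelium, was above background in 009 only, with 1.46, 1.31, 1.48, 3.97 and 1.78. Des, Tpm1 and Tpm2 are shared with striated muscle, and Tpm1 stood at 7.21, 9.11, 4.62, 18.2 and 14.3. Of 14 basal and myoepithelial genes only Acta2 was above background in all 5 regions and 10 were so in none, close to the shares of the panel. Trp63, the basal transcription factor, had levels of 1.88 to 2.21. Oxtr, the oxytocin receptor of myoepithelial cells, was above background in 3 regions with 2.65, 1.49, 1.62, 2.57 and 4.06. Pericyte genes passed in all 5 regions for 2 of 10 members. One was Rgs5, a pericyte signalling regulator, at 4.64, 2.82, 3.95, 4.02 and 4.24, and the other was Mcam, an adhesion molecule of vessel walls, at 3.98, 2.52, 3.27, 8.66 and 7.31. The part of smooth muscle cells in the segments of 009 and 010 was not tested.

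Only 7 endogenous probes (0.0351%) were at least 2-fold higher in both 009 and 010 than in each of 001, 005 and 006 while above background in both. No negative probe met the same rule, but 210 negative probes are too few to show a rate so low. Mgp, matrix Gla protein, an inhibitor of calcification made by vascular smooth muscle and fibroblasts (chr6:136872754-136872788), had the widest gap. Its levels were 12.0, 9.18, 11.4, 43.8 and 38.3, so the lower of 009 and 010 was 3.19-fold above the highest of the other 3. Erdr1 had 9.02, 4.03, 7.75, 29 and 25.1, a gap of 2.78-fold. Scd1, described above, had a gap of 2.75-fold. The others were the adipocyte hormone resistin and 2 genes of contraction and the cytoskeleton, together with Plac9a. Retn, resistin, had 8.62, 4.08, 6.72, 17.8 and 23.6. Flna, the actin crosslinker filamin A, had 6.50, 3.99, 4.87, 20.1 and 13.3, and Mylk, myosin light chain kinase, had 2.79, 1.64, 1.99, 9.01 and 5.66. Plac9a, whose probe has 3 target sites, had 2.48, 1.38, 1.79, 5.49 and 5.15. The rule fixes that 009 and 010 do not overlap the other regions in these genes, and 4 of the 7, with gaps of 2.03-fold to 2.08-fold, are just inside the limit. Flna and Mylk are in the smooth muscle list and Retn and Scd1 in the adipocyte list, and the medians of both lists were higher in 009 and 010.

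**Figure D3:**
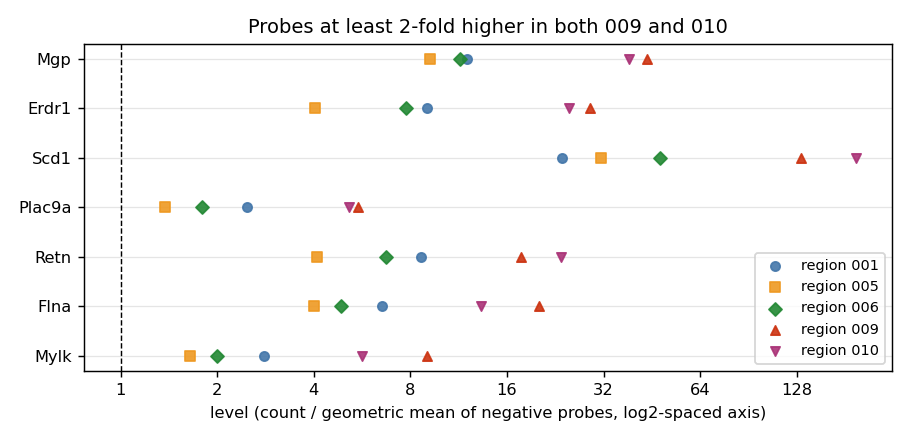
Points show the level (log2-spaced axis, count over the geometric mean of the negative probes) of the 7 probes at least 2-fold higher in both 009 and 010 than in each other SMA-adjacent region. For each probe the triangles of 009 and 010 lie right of the other 3 symbols, from Plac9a at 5.49 and 5.15 to Scd1 at 132 and 196.

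No probe (0%) was at least 2-fold lower in both 009 and 010 than in each of the other 3. The nearest was Ahsp, the chaperone of alpha globin, at 5.39, 4.85, 4.96, 2.50 and 2.89, a gap of 1.68-fold, and the next was Zfp114 at 1.54-fold. Both were named after their values were seen. These counts differed between scales. Each count above the negative mean was also expressed as a share of such counts over the 1257 probes. By that measure 27 of the 19965 probes were higher and 72 were lower in both 009 and 010. Zfp114 and Ahsp had the widest gaps among the 72, at median levels of 2.77 and 4.85, and a negative probe reached 3.25. On that scale region 005, with the smallest part of its counts above background (21.6%), was highest for 45.4% of the 1257 probes. Region 001 was highest for 20.4%, 010 for 13.6%, 006 for 12.6% and 009 for 8.04%. Mgp, Erdr1, Scd1 and Plac9a were among the 27, and Retn, Flna and Mylk had both 009 and 010 above the other 3 with gaps under 2-fold.

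Skeletal muscle genes were mostly highest in 005, with 010 next. Acta1, skeletal muscle actin (chr8:123892329-123892363), had levels of 5.75, 32.9, 2.30, 11.0 and 22.9 and the widest spread of all probes above background in all 5 regions, 14.3-fold. Tnnt3, a fast troponin, had 2.65, 15.7, 1.10, 5.39 and 10.6, and Ckm, muscle creatine kinase, had 2.21, 14.5, 1.07, 4.37 and 11.7. Atp2a1, the calcium pump of fast fibres, had 1.59, 14.0, 1.23, 4.14 and 11.0. The order was 005, then 010, then 009, with 001 and 006 lowest, in all 4 genes. Of 16 skeletal muscle genes, 13 were highest in 005, where 5.2% of all probes were highest. In 006, where 16.9% of all probes were lowest, 13 were lowest. Their share of the counts above background was 0.157%, 3.18%, -0.0141%, 0.422% and 1.06%, the negative value meaning a sum below the negative mean. By region 2, 12, 1, 8 and 12 of the 16 were above background, as many in 010 as in 005. Over all probes these shares were 12.2%, 8.79%, 12.5%, 19.1% and 19.2%. Acta1 alone was above background in all 5 regions.

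Of the 4 probes at least 2-fold higher in 005 than in each other region (0.02%), 3 were muscle genes. Mb, myoglobin, had 1.55, 5.27, 1.28, 2.39 and 2.13, Myh13, the myosin heavy chain of extraocular muscle, had 0.619, 2.94, 0.856, 1.02 and 0.837, and Myl10, a myosin light chain, had 0.707, 2.38, 0.840, 0.915 and 1.14. In 005 Myh13 and Myl10 had counts of 327 and 265, below the highest negative probe there, 382. With the limit at 3 SD over the negative probes, 2 of the 4 probes remained. The widest gap was that of Snrpn, an imprinted gene for a splicing protein, with 1.37, 6.82, 1.29, 1.51 and 1.42, and counts of 31, 758, 83, 130 and 56. It was above background in 005 only. What muscle cells contributed to the segment of 005 was not tested.

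Genes of brown fat were highest in region 006. Brown adipocytes burn fat in mitochondria that contain the uncoupling protein Ucp1. Ucp1 itself had levels of 1.37, 3.41, 5.02, 3.54 and 1.65 and was above background in 005, 006 and 009. Cox8b, a cytochrome oxidase subunit of brown fat and muscle (chr7:140899017-140899052), had 1.06, 4.07, 9.78, 4.38 and 2.21, and Cidea, a lipid droplet protein of brown fat, had 1.15, 2.42, 5.90, 2.41 and 1.52. These 2 were the only probes (0.01%) at least 2-fold higher in 006 than in every other region. Pdk4, which spares glucose during fat oxidation, had 1.86, 3.55, 6.75, 3.94 and 3.04, and Cox7a1 had 1.24, 2.13, 4.53, 2.49 and 1.85. Of 9 brown fat genes measured none was above background in all 5 regions and 7 were highest in 006, where 11.1% of all probes were highest. Dio2, Ppargc1a, Zic1 and Elovl3 stayed between 0.685 and 1.46. The list's median level was 1.15, 2.13, 4.53, 2.41 and 1.52, with region 001 lowest.

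Respiratory chain genes encoded in the nucleus, which supply the mitochondrial membrane complexes that make ATP, were lowest in 001. Atp5b, a catalytic subunit of ATP synthase, had levels of 12.6, 15.2, 32.0, 29.1 and 29.5. Cox4i1, a cytochrome oxidase subunit, had 9.37, 10.5, 23.1, 23.8 and 22.3. For both genes regions 006, 009 and 010 lay close together and 001 and 005 lay lower. Of 25 members 19 were above background in all 5 regions. By level 21 were lowest in 001, beside 16.5% of the panel, and 15 were highest in 006, beside 11.1%. The median level was 3.49, 4.78, 7.65, 7.83 and 7.31, and as a share of counts above background the list was highest in 006, with 1.43%, 3.03%, 4.06%, 3.06% and 2.72%. Cytosolic ribosomal protein genes had another order. Of 24 members 23 were above background in all 5 regions and all 24 were lowest in 005, as were 40.4% of all probes. Their medians were 8.09, 3.82, 6.02, 9.92 and 10.7. Their share of counts above background was 3.11%, 2.01%, 2.21%, 2.97% and 3.16%, so 001 stood beside 009 and 010 on that scale. On it 20 of 24 members were lowest in 005, a count for which no panel share was made.

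**Figure D4:**
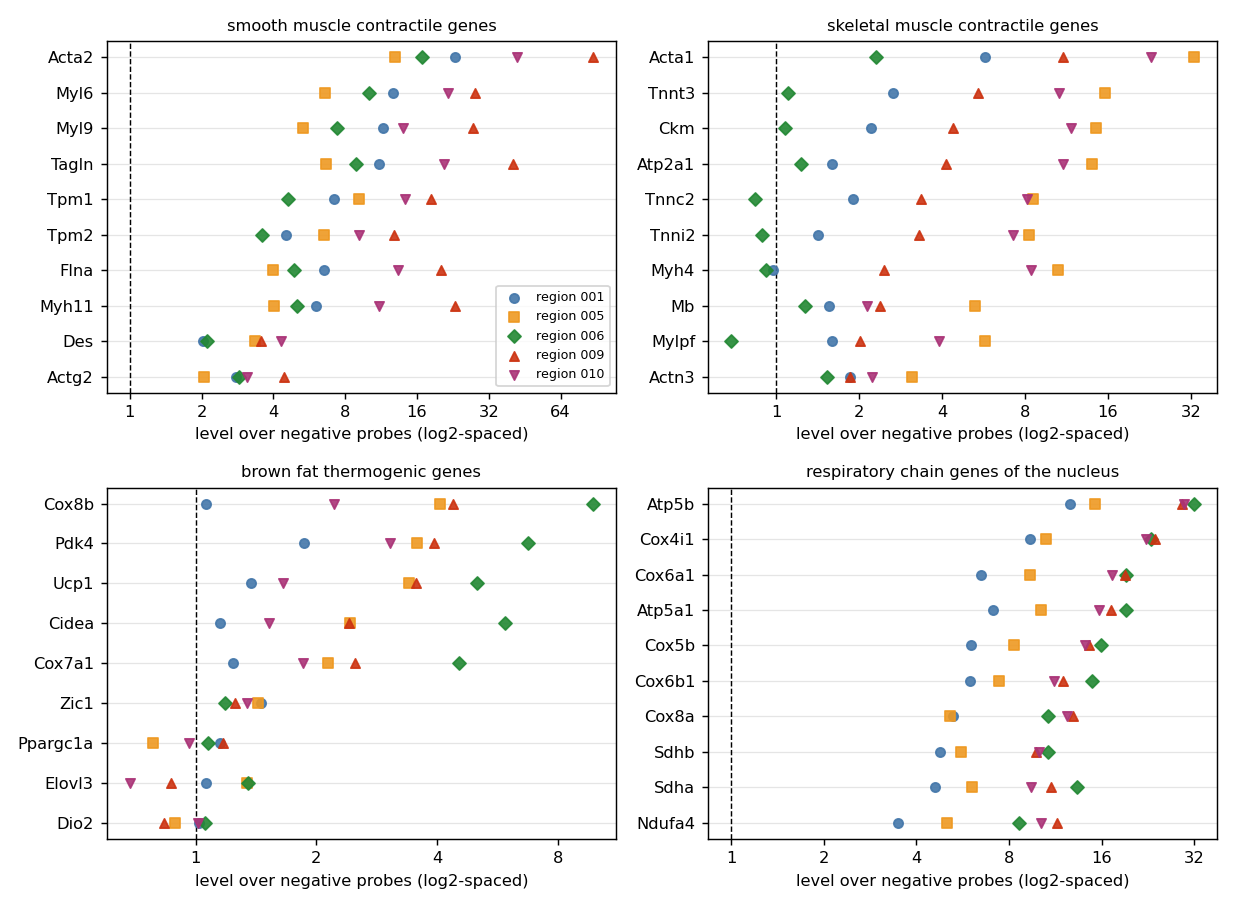
Points show levels (log2-spaced axes, count over the geometric mean of the negative probes) of up to 10 members of highest median from 4 gene lists in the 5 SMA-adjacent regions; the dashed line is background. Region 009 leads the smooth muscle genes (Acta2 at 87.5), 005 the skeletal muscle genes (Acta1 at 32.9) and 006 the brown fat genes (Cox8b at 9.78), and 001 is lowest for most respiratory chain genes.

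A part of the fibroblast genes was above background in every region. Gsn, the actin-severing protein gelsolin (chr2:35284704-35284739), had levels of 43.7, 21.5, 37.6, 53.7 and 75.1. Dcn, the proteoglycan decorin of fibroblasts, had 18.5, 6.30, 9.10, 17.0 and 23.7. Dpt, dermatopontin, had 8.00, 4.34, 5.55, 6.79 and 9.36. By level, region 010 was highest and 005 lowest in all 3. Of 19 fibroblast and adventitial markers, 7 were above background in all 5 regions and 3 in none. The receptor Pdgfra, a defining fibroblast marker, had 3.4, 1.69, 1.85, 2.63 and 3.22, and the list's share of counts above background was 1.92%, 1.30%, 1.33%, 1.71% and 2.09%. Dcn was highest in 001 on that scale.

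Postn itself, the gene behind the lineage trace (chr3:54367590-54367627), had levels of 5.13, 2.09, 1.84, 1.92 and 3.15. It was above background in 001 and 010 only. Region 001 was highest both by level and as a share of counts above background. Pdpn, the gene of the other stain, was above background in no region, with 1.56 to 1.95. Of 16 matricellular genes, secreted matrix proteins that signal to cells, 2 were above background in all 5 regions. Sparc, which binds collagen, had 9.02, 5.26, 9.61, 14.8 and 17.7, and its relative Sparcl1 had 7.21, 4.79, 5.88, 15.6 and 11.6. Ccn2, a growth factor of the connective tissue, was above background in 001, 009 and 010, with 2.65, 1.21, 1.74, 5.94 and 4.74.

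By median level collagens led the matrix lists, although Mgp, in none of them, was above Col3a1 in 009. Col3a1 (chr1:45321516-45321553), which forms thin fibrils of soft tissue, had levels of 29.8, 13.5, 23.9, 32.5 and 46.4. Col1a1, the main chain of fibrillar collagen, had 27.5, 12.7, 22.9, 27.4 and 37.8. Of 21 genes of fibrillar collagens and associated matrix 9 were above background in all 5 regions, and 19 were lowest in 005, as were 40.4% of all probes. As shares of counts above background 10 were lowest in 005, a count for which no panel share was made. On the level scale their median was highest in 010 and as counts scaled to the endogenous total it was highest in 001. Of 17 elastic fibre genes 2 passed in all 5 regions. Eln, elastin of artery walls and skin, had 5.92, 4.16, 4.25, 11.7 and 8.19, and Ltbp4, which holds latent transforming growth factor beta in the matrix, had 8.36, 3.58, 4.87, 13.5 and 12.9. Both were highest in 009. Of 20 basement membrane genes 5 passed, among them Col4a1 at 6.59, 4.56, 5.65, 7.33 and 8.62 and Nid1 at 4.47, 2.37, 2.94, 4.02 and 5.20. Of 15 TIMPs and matrix proteases 4 passed. Timp3, the inhibitor bound to matrix, had 7.65, 4.61, 7.33, 12.3 and 11.5, and Mmp2, a gelatinase, had 5.44, 2.95, 3.73, 3.94 and 5.48. Signalling genes of transforming growth factor beta passed for 2 of 16 members, Ltbp4 among them. Insulin-like growth factor genes passed for 2 of 11 members. Igfbp7 had 8.98, 4.44, 6.84, 16.1 and 17.7 and Igfbp4 had 9.64, 4.44, 5.94, 12.4 and 13.3, both binding proteins found in the matrix and higher in 009 and 010.

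Endothelial genes of blood vessels were above background in all 5 regions for 6 of 18 members, Fabp4 among them. Vwf, the clotting factor stored in endothelium, had levels of 9.11, 2.57, 3.34, 7.76 and 8.80. Aqp1, a water channel of capillaries, had 11.5, 2.55, 3.53, 7.27 and 12.0, and Cdh5, the endothelial cadherin, had 6.63, 3.20, 3.95, 5.99 and 5.73. In these 3 genes 005 and 006 were lowest and 001 lay with 009 and 010 or above them. The list's median level was 3.37, 1.69, 1.73, 3.46 and 4.08. Of 12 lymphatic endothelial genes none was above background in all 5 regions and 11 were so in none, with Prox1, the lymphatic master regulator, at 1.43 to 1.60. Haemoglobin genes were above background in every region and highest in 006. Hba-a1, alpha globin, whose probe has 2 target sites, had 96.0, 52.6, 177, 116 and 73.2. Hbb-b1, beta globin, also with 2 sites, had 51.9, 28.7, 94.6, 62.4 and 36.9. Among 5 erythrocyte genes only Hba-a1 passed in all 5 regions.

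**Figure D5:**
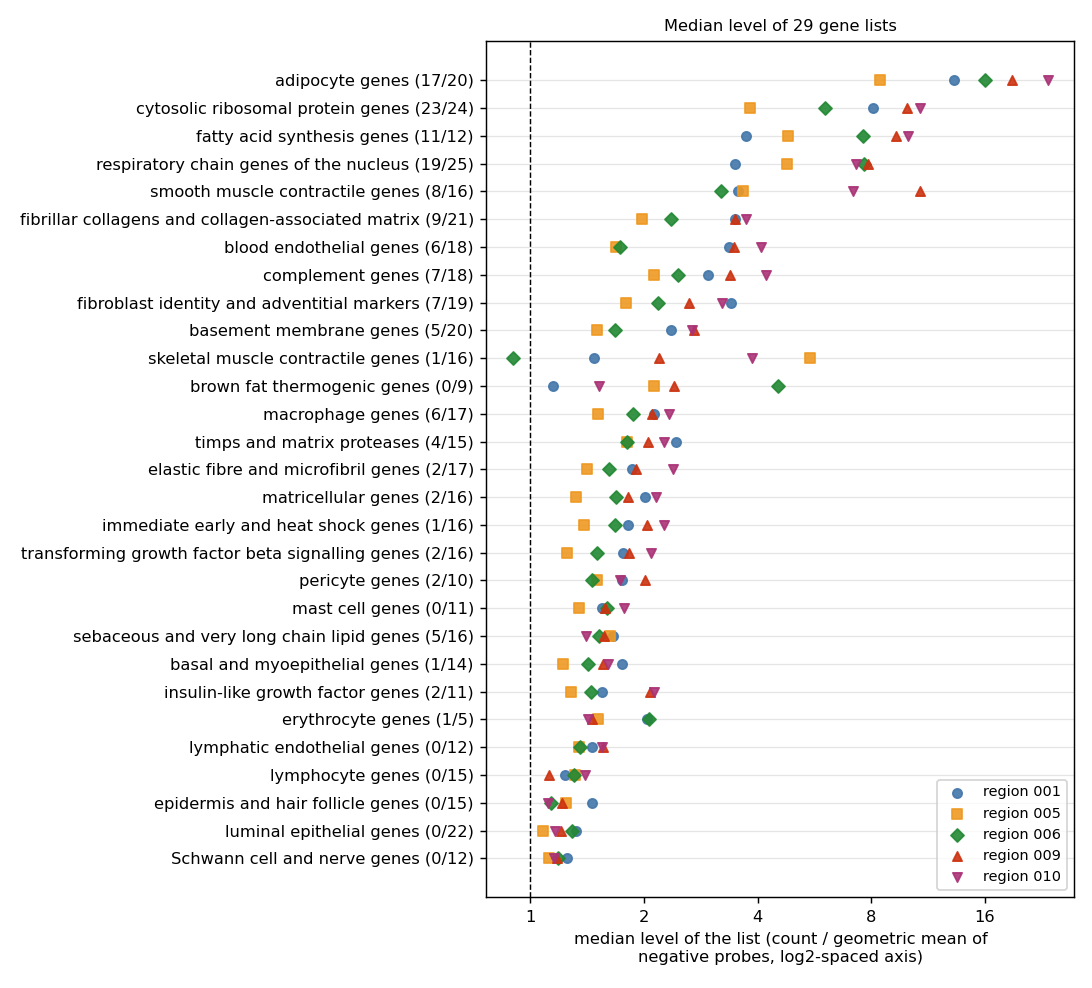
Points show the median level (log2-spaced axis, count over the geometric mean of the negative probes) of each of 29 gene lists in the 5 SMA-adjacent regions, with the number of members above background in all 5 regions of those measured in brackets; the dashed line is background. Adipocyte genes lead at 8.41 to 23.5, smooth muscle genes are highest in 009 at 10.7, skeletal muscle genes in 005 at 5.50 and brown fat genes in 006 at 4.53.

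Macrophage and complement genes were above background in part. Of 17 macrophage genes 6 were above background in all 5 regions. Cd74, the invariant chain of antigen presentation, had levels of 10.7, 5.20, 8.49, 12.3 and 16.2, and the complement gene C1qb, made by tissue macrophages, had 3.54, 2.28, 2.69, 3.57 and 5.07. By level both were highest in 010 and lowest in 005. Of 18 complement genes 7 passed, led by Cfd, and C3 had 11.0, 10.1, 16.3, 18.9 and 18.4. Mast cell genes passed in all 5 regions for none of 11 members. The protease Mcpt4, of connective tissue mast cells, was above background in 006, 009 and 010 with 2.25, 1.48, 2.49, 3.89 and 5.50. Another member, Tpsab1, was above background in 005 only and lowest in 009, with 2.39, 2.41, 2.13, 1.84 and 2.08. As shares of counts above background, 6 of the 11 members were lowest in 009, a count for which no panel share was made. Of 16 immediate early and heat shock genes, which respond to stress, 1 passed, about the share of the panel. It was Jund, at 5.48, 3.17, 5.09, 6.58 and 7.51.

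Antibody genes singled out region 009. Igha, the constant region of immunoglobulin A, had levels of 0.619, 0.378, 0.498, 6.54 and 0.507, from counts of 14, 42, 32, 565 and 20. Igkc, the kappa light chain, had 1.77, 0.495, 0.560, 5.33 and 0.660. Immunoglobulin A is secreted by plasma cells, which enter the mammary gland in lactation. Jchain, which joins its units, had 1.90, 1.62, 1.63, 2.59 and 1.60 and was above background in 009 only. Lymphocyte genes were above background in all 5 regions for none of 15 members, and Cd3e, a chain of the T cell receptor complex, had 1.67 to 2.04. Igha, Igkc, Cnn1, Acta2 and Myh11 were the 5 probes (0.025%) at least 2-fold higher in 009 than in each other region. In region 010 no probe (0%) met that rule.

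In region 001 the rule was met by 4 probes (0.02%). Cd99, a membrane glycoprotein, had levels of 30.6, 3.90, 6.46, 11.9 and 11.9. Pcbd2 had 16.1, 2.67, 4.00, 5.98 and 7.03. Osgepl1, a tRNA-modifying enzyme of mitochondria, had 3.94, 1.03, 0.747, 0.996 and 1.37, and Tgm5, an epidermal transglutaminase, had 2.56, 0.855, 0.544, 0.961 and 0.862. The former pair was above background in every region and the latter in 001 only, where counts were 89 for Osgepl1 and 58 for Tgm5. Region 001 was the shallowest, so its low counts are the least precise.

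Of 22 luminal epithelial genes none was above background in all 5 regions and 20 were so in none, near the shares of the panel. Krt19, a duct keratin, had 2.61, 2.17, 2.38, 1.75 and 2.13, and Epcam, the epithelial adhesion molecule, had 2.61, 1.95, 2.36, 2.10 and 1.95. Both were above background in 3 regions, by a small margin. All 15 epidermis and hair follicle genes were above background in none, with Krt10, a keratin of upper epidermis, at 1.45 to 2.08. Schwann cell and nerve genes passed in all 5 regions for none of 12 members, and Pmp22, a myelin protein also made by fibroblasts, had 1.46, 1.24, 1.87, 2.49 and 3.02.

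Across the whole panel every pair of regions was correlated, and no clean division into pairs was seen, since 006 with 009 had a Spearman's rho of 0.888. Spearman's rho over the 19965 probes ran from 0.816 for 001 with 010 to 0.914 for 009 with 010, with a median of 0.856 over the 10 pairs, and 005 with 006 had 0.909. Among probes above background in at least 1 region rho ran from 0.449 for 005 with 010 to 0.849 for 009 with 010, and 005 with 006 had 0.813. The 210 negative probes gave 0.694 for 001 with 010 to 0.897 for 005 with 006, and 0.806 for 009 with 010. Probes with no target thus also kept much of their order from region to region, most of all between 005 and 006. The probes of smallest spread among the 1257 lay close to background. Srp72, of the signal recognition particle, had levels of 2.79, 2.72, 2.83, 2.85 and 2.74, and Ep400, a chromatin remodeller, had 3.36, 3.29, 3.50, 3.57 and 3.45.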

How the data were processed

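The values deposited are raw probe counts, 1 column per region, not normalized and never 0, judged from the numbers themselves. The steps from reads to counts are not given in the sources used here, so duplicate removal is unknown. Probe targets (median length 37 bases, 19291 probes with 1 site) refer to GRCm38.p6 according to the headers of the table, and 19910 of 19965 endogenous probes matched the RefSeq gene table of that build. Precision is lower where depth is lower, and errors given are spreads between regions, or between negative probes, which may be technical.

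From these counts, levels over the negative probes, calls above background, 2-fold gap rules and list medians were computed in Python 3.11.15 (pandas 2.3.3), and TMM scaling came from edgeR 4.0.16 in R 4.3.3. The gap rules were run on simulated data with planted changes larger than the 2-fold limit, so that run says nothing of gaps near the limit. Samples were grouped by title. No p-value was computed, because 1 labelled group was described. The genes named by rule were Postn, Pdpn, Acta2, the 20 probes of highest median level, up to 4 leading members of each list, the 12 probes of widest gap for 009 with 010, the 3 for each single region, and the 5 of largest and of smallest spread. The others (Cidec, Adipoq, Plin1, Lep, Acly, Tpm1, Myh11, Pdgfra, Cdh5, Prox1, Cox7a1, Zic1, Dio2, Ppargc1a, Elovl3, Pcbd2, Myl10, Ahsp, Zfp114) were chosen after their values were seen. The regions, lists and members were chosen with earlier results of these data known. Alternatives changed the background rule, the scaling, the gap size, the depth and the regions included. The share scale and the fatty acid list were added after seeing the data. The values of 1 gene are not reported here.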

Additional observations from a re-analysis of the deposited data

Results flagged for a closer look

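On the log2 scale, 173 measures (levels of the genes named by rule, list medians and 4 measures of each region) were searched for a region far from the other 4, by the gap of the highest or lowest region relative to the range. Chance alone would single out about 1 in 20 of measures not chosen for their spread, and 6 were found here. Some of the 173 entered the search through the gap rules or for their spread, so that rate is no reference for the 6. Igha, Cnn1 and Snrpn entered because 1 region stood above the other 4. Igha stood at 6.54 in region 009 beside 0.378 to 0.619, and Cnn1 at 3.97 in 009 beside 1.31 to 1.78. Snrpn stood at 6.82 in region 005 beside 1.29 to 1.51. Gm52523, a predicted gene among the 20 highest probes, was low in 005 at 16.1 beside 30.8 to 37.9. Cd3e reached 2.04 in 006 beside 1.67 to 1.77, not called above background in any region. Srfbp1 was low in 009 at 2.31 beside 2.44 to 2.49, a gap smaller than 1 SD between negative probes.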

How the results depend on the processing

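No paired analysis was possible because the report describes 1 labelled group, no region number is shared between groups and no test was run. With 1 region left out, the probes above background in all the others numbered 1283 to 1693.

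At 3 SD over the negative probes, 343 probes were above background in all 5 regions, and above the highest negative probe 327 were. Per region (001, 005, 006, 009, 010) these rules gave 625, 461, 810, 1527 and 1575, and 662, 434, 647, 1539 and 1911. At 2 times the geometric mean region 001 had 4289. Probes higher in both 009 and 010 numbered 3 with counts scaled to the endogenous total, 27 on the share scale, 113 at 1.5-fold, 1 at 3-fold, 82 after subtraction of background, and 13 to 52 with 1 region left out, where all 7 remained each time (52 without 001, 13 without 005, 50 without 006, 24 without 009, 33 without 010). Probes lower in both numbered 72 on the share scale, 3 at 1.5-fold and 2 after subtraction.

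For single regions the share scale gave 27, 44, 7, 24 and 12 probes, 1.5-fold gave 27 in 001, 14 in 006, 25 in 009 and 15 in 010, and 3-fold gave 0, 1, 0 and 2 in 001, 005, 006 and 009. Subtraction gave 21 in 001, 6 in 006, 22 in 009 and 20 in 010. Region 005 had 2 at 3 SD, and 009 had 8 by endogenous total and by upper quartile. The median rho was 0.664 over probes above background in at least 1 region. Lists with over 2-fold between their highest and lowest region numbered 8, 19 on the share scale and 18 over members above background somewhere. The cause of these shifts was not tested. By these rules more probes were lower than higher in both 009 and 010 on the share scale, the opposite of the level scale, and the region of highest median changed between scalings for some lists, such as the collagens (010 by level, 001 by endogenous total and on the share scale).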

Other observations

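Probes for other fluorescent proteins were at background: the GFP probe had levels of 0.871 to 1.19 and the EGFP/EYFP/ECFP probe 1.40 to 2.21, above background in no region. ZsGreen comes from a coral and is another sequence than GFP, so these probes say nothing of the reporter.

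Genes named here after their values were seen added to the region differences. Csrp1 and Sorbs2, cytoskeletal proteins of muscle, were highest in 009, with levels of 4.33, 3.25, 4.14, 15.2 and 8.4 and of 3.01, 2.94, 3.13, 11.6 and 5.99 in regions 001, 005, 006, 009 and 010. Ppp1r14a, an inhibitor of myosin phosphatase in smooth muscle, had 2.52, 1.97, 2.19, 8.21 and 4.59. Retnla, a secreted relative of resistin, was highest in 010 at 4.60, 4.32, 4.03, 7.30 and 13.9. Nnat, an imprinted gene of the endoplasmic reticulum, had 19.6, 4.78, 7.14, 15 and 26.9, and Hbb-b2, a beta globin, had 20.8, 12.4, 37.1, 23.4 and 14.4. The first 3 are highest in 009 with 010 second, the order of the smooth muscle list, and were picked for it.

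Among the 20 highest probes are some whose signal has no clear tie to the tissue. Mup13, of the major urinary proteins, has a probe with 16 target sites and levels of 56.5, 14.9, 34.4, 61.6 and 51.8. Lrr1, at 72.4, 33.0, 59.5, 107 and 93.1, and Gm52800, at 74.5, 26.7, 46.9, 44.0 and 46.7, have 1 site each.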
